A study of Mus musculus with 16 samples.

Results

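The core clock loop was described here through 10 genes, of 54532 listed, whose transcripts were measured by RNA-seq in pulmonary endothelial cells (ECs). They were Arntl, Clock and Npas2, which encode the activating arm of the loop, Per1, Per2, Per3, Cry1 and Cry2, which encode its repressing arm, and Bhlhe40 and Bhlhe41, which encode a second pair of repressors. The genes were chosen by name with results of the saline and LPS libraries in view, so their differences between those 2 groups are given as a description, with no p-value, and the number called by a fit across all genes stands only beside the share of all genes called.

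The study asked how lipopolysaccharide (LPS), a bacterial cell wall component that causes acute lung injury when given into the trachea, and the loss of the fibroblast growth factor receptor FGFR1 from ECs affect the lung endothelium. Male wild-type C57/BL6J mice, 8 weeks of age, received saline (saline group, n = 4) or 10 mg/kg LPS (LPS group, n = 6). In a separate experiment, 3 Fgfr1 loxP/loxP and 3 Fgfr1 iΔEC/iΔEC libraries came from mice that were given tamoxifen and then 2 mg/kg LPS, and no saline-treated mice of these genotypes were analysed here. Fgfr1 iΔEC/iΔEC mice carry the same loxP alleles together with a tamoxifen-dependent Cre recombinase under the VE-cadherin promoter, so that Fgfr1 is removed only from cells that use this endothelial promoter, and only where recombination took place. The loxP/loxP mice were littermates without Fgfr1 deletion, and the mice of this experiment are described as adult, with no age in weeks given in the sources used here. Lungs were taken 24 h after instillation, CD45+ cells were removed with magnetic beads, and CD31+ cells were then kept. Whether a library came from 1 mouse or from pooled mice, and the clock hour of collection, are not given in the sources used here, so p-values measure only the spread between these libraries.

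The circadian clock is a feedback loop in which the proteins CLOCK or NPAS2 pair with BMAL1, the product of Arntl, bind E-box elements in DNA and switch on the Per and Cry genes. PER and CRY proteins then return to the nucleus and block this pair until they are degraded, so that transcripts of the activating and repressing arms peak at different hours. The proteins of Bhlhe40 and Bhlhe41 compete for E-boxes, the REV-ERB and ROR receptors set the level of Arntl through ROR elements, and the PAR bZIP factors (DBP, TEF, HLF) and their opponent NFIL3 act through D-boxes. Endothelial cells have such a clock, and Per1 is also known for a rapid response to glucocorticoids and to cAMP that does not need the loop.

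These elements were searched for in the DNA just upstream of the members. RefSeq promoters (build GRCm38.p6) were found for 8 of the 10 genes, as 12 start sites, with no entry for Per2 and Bhlhe40. The E-box, searched as CACGTG, was present within 250 bases upstream of 3 of these 12 start sites, in Per1, Cry1 and Bhlhe41, and in 6.02% of all 32851 promoters. Its weaker form, searched as CACGTT on both strands, was present upstream of Cry1 and Cry2 and in 3.85% of promoters. The D-box, searched as TTATGTAA on both strands, was present only upstream of Per3 among the members and in 0.819% of promoters. No member held TTACGTAA, a second form of the D-box (0.113% of promoters), the cAMP response element TGACGTCA (1.55%), or either of 2 forms of the ROR element (0.177% and 0.174%) in this window. The letters were searched on both strands, none of these matches overlapped another, and a match is a description of the DNA rather than evidence of binding. The 4 stretches that follow are shown because they hold the E-boxes and D-boxes found among the members. Bases of the gene's annotated exons were left out of them. They run 5′ to 3′ on the gene's strand, and carry the matched letters in capitals, with distances counted from the RefSeq start site to the first base of the match. They are chr11:69098699-69098947 (+) for Per1, chr10:85185065-85185304 (-) for Cry1, chr6:145865559-145865670 (-) for Bhlhe41 and chr4:151044666-151044915 (-) for Per3. The Per1 stretch lies inside the gene model, in the first intron of a longer annotated transcript that starts upstream of it.
Per1, E-box 166 bases upstream: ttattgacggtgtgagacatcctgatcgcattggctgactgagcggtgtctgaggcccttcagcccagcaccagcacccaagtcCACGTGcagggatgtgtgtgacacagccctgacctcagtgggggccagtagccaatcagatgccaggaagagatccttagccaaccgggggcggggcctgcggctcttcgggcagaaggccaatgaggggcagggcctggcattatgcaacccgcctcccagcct
Cry1, weaker E-box 79 bases upstream on the opposite strand and E-box 60 bases upstream: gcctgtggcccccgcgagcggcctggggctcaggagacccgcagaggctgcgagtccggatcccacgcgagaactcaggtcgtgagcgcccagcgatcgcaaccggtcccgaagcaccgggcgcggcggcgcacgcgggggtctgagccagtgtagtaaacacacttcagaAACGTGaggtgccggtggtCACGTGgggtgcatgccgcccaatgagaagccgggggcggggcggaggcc
Bhlhe41, E-box 153 bases upstream: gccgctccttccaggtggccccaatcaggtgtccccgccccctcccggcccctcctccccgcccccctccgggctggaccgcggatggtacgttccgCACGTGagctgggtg
Per3, D-boxes 205 and 158 bases upstream: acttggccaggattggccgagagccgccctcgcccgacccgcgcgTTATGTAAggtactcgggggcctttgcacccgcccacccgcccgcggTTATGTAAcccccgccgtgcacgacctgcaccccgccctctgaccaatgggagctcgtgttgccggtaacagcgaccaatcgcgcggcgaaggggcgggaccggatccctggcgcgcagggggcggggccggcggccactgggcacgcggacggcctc

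The libraries held 13478726 to 19043015 reads on genes, with the smallest number in the saline library numbered 1, called saline 1 here. Levels are given in FPKM, fragments scaled to the length of the gene and to a size of the library. Scaling to length allows genes of different length to be compared. The size used in the deposited values was not the total of reads on genes. In saline 2 it was 2.21e+07 against a total of 18807007, and in LPS 2 1.62e+07 against 18133012. Endothelial identity was checked with 10 markers (Pecam1, Cdh5, Kdr, Tek, Tie1, Flt1, Egfl7, Eng, Emcn and Cldn5), and their summed level was 3424 to 5845 FPKM in saline, 1507 to 3552 in LPS, 2453 to 3053 in Fgfr1 loxP/loxP and 2801 to 3900 in Fgfr1 iΔEC/iΔEC libraries, with Cldn5 the most abundant. Markers of other cells were also present. The 6 pan-leukocyte markers, led by Coro1a, summed to 71.5 to 238 FPKM in saline and 773 to 1898 in LPS libraries, and all 6 had a higher mean in LPS. The 8 neutrophil markers, led by S100a9, summed to 69.1 to 304 FPKM in saline 2 to 4, 1423 in saline 1 and 1318 to 6748 in LPS libraries. Macrophage markers, led by Mertk in saline and Csf1r in LPS, summed to 42.3 to 52.1 FPKM against 325 to 701, with 6 of 8 higher in LPS. Epithelial markers, led by Sftpc, summed to 1074 to 2862 FPKM in saline and 264 to 945 in LPS libraries, and 8 of 10 had a lower mean in LPS. Lymphocyte markers, led by Cd79a, summed to 24.0 to 134 FPKM in saline and 12.1 to 48.4 in LPS libraries. Fibroblast markers, led by Dpt, summed to 48.8 to 86.2 FPKM against 23.6 to 52.9, mural markers, led by Acta2, to 26.6 to 121 against 33.1 to 58.8, and the 4 globin genes, led by Hba-a1, to 6.12 to 25.3 against 20.8 to 73.8. Defining markers at 0 in 1 library each were Ly6g (saline 4), Marco (saline 1) and Lum (saline 3). The leukocyte, macrophage and epithelial sums did not overlap between the LPS and saline groups, and the other 6 sums did. All 10 endothelial markers had a lower mean in LPS, and 5 of them (Cdh5, Kdr, Tek, Tie1 and Flt1) were lower in all LPS than in all saline libraries, with Cdh5 at 245 to 520 against 669 to 792 FPKM. The part of these cells in the levels of the clock genes was not tested. In such bulk samples, fewer cells of a type and less RNA per cell cannot be told apart.

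One library, saline 1, stood apart from its group, so the results that rest on it are given with and without it. In saline 1, 9 of the 10 members lay outside the range of saline 2 to 4, and 6 of them differed from the mean of those 3 libraries by at least 2-fold. The share of all genes outside that range was not counted, so this is not read as particular to the clock genes. Of the casein kinase genes, Csnk1d (52.3 against 33.8 to 34.5 FPKM) and Csnk1e (34.1 against 19.2 to 20.1) also lay outside it. Csnk1a1 (38.6 against 35.1 to 41.1) lay inside it. Per1 was at 134 FPKM in saline 1 and at 17.9, 10.8 and 17.5 FPKM in saline 2, 3 and 4, so that saline 1 held 8.69 times the mean of the others. Npas2 was 8.95-fold, Bhlhe40 3.66-fold and Arntl 2.18-fold higher in saline 1, whereas Per3 was 4.17-fold and Per2 2.35-fold lower. Clock, at 5.95 FPKM, was the member that lay within the range of the other saline libraries, 5.37 to 6.12. The output genes of the clock departed as well. Dbp was at 1.92 FPKM in saline 1 and at 19.1 to 25.2 FPKM in the other saline libraries, and Nr1d1, which encodes REV-ERBα, was at 30.9 against 50.3 to 64.7. Genes that respond to glucocorticoids were higher in saline 1, with Fkbp5 at 15.1 against 0.733 to 1.11 FPKM and Tsc22d3 at 141 against 32.2 to 48.9. In the same library all 6 pan-leukocyte, all 8 neutrophil and all 10 epithelial markers were above those of the other 3 saline libraries. So were 5 of 7 fibroblast and 5 of 7 mural markers. The endothelial sum was the highest of the group, with Cldn5 at 2842 against 938 to 1362 FPKM. Of the 10 endothelial markers 5 were highest in saline 1, while Kdr, Tek, Tie1 and Egfl7 were below all other saline libraries. The part of these other transcripts, of depth or of the hour of collection in the levels of saline 1 was not tested.

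**Figure D1:**
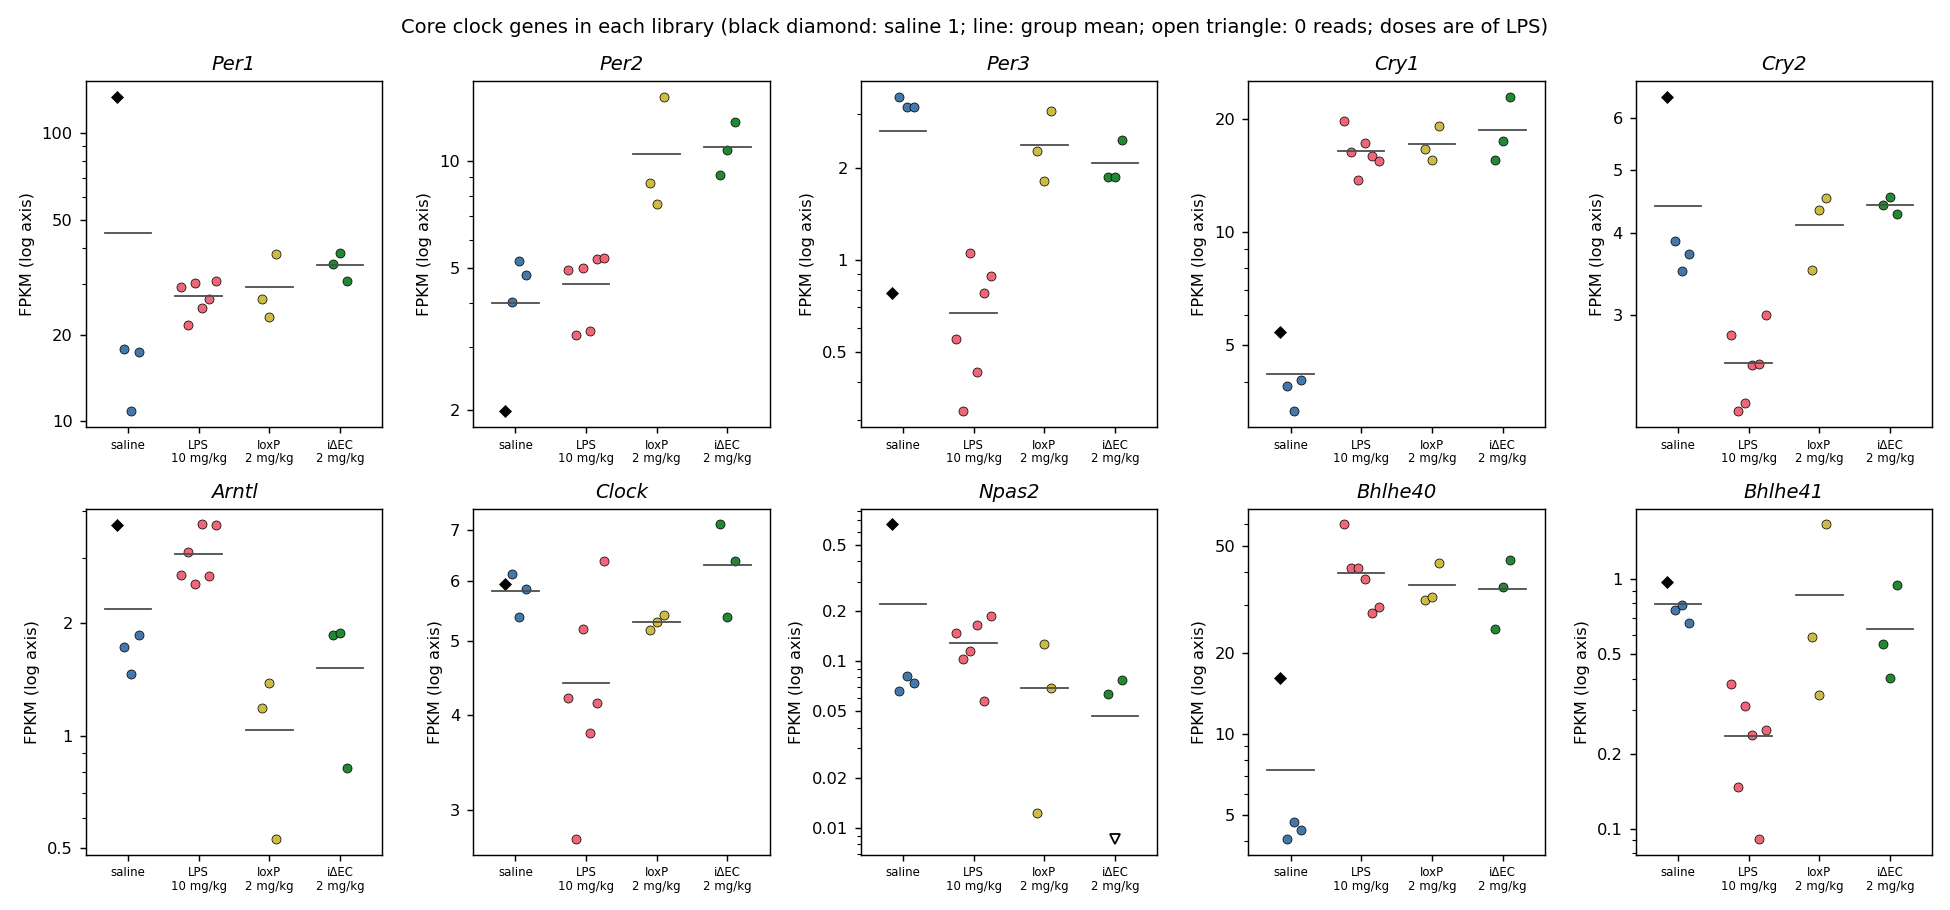
Level of each of the 10 core clock genes in the 16 libraries, in FPKM on a log axis, with 1 panel per gene, 1 point per library and a line at the group mean (loxP, Fgfr1 loxP/loxP; iΔEC, Fgfr1 iΔEC/iΔEC). Saline 1, the black diamond, lies far above the other saline libraries for Per1 (134 FPKM), Npas2 (0.663) and Bhlhe40 (16.1), and all 12 LPS-treated libraries lie above all 4 saline libraries for Cry1 and Bhlhe40.

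In the saline group without saline 1, Per1 had the highest level of the members, 15.4 ± 3.95 FPKM (SD, n = 3). It was followed by Clock (5.79 ± 0.381), Per2 (4.68 ± 0.616), Bhlhe40 (4.39 ± 0.314), Cry1 (3.76 ± 0.374), Cry2 (3.71 ± 0.199), Per3 (3.25 ± 0.146), Arntl (1.68 ± 0.202), Bhlhe41 (0.737 ± 0.0647) and Npas2 (0.0740 ± 0.00789). Neighbours whose libraries overlapped in this order were Per2 with Bhlhe40 and Cry1 with Cry2, and the other neighbours did not overlap. With saline 1 included, all neighbours overlapped except Arntl with Bhlhe41 and Bhlhe41 with Npas2. In the LPS group the order was led by Bhlhe40 (39.6 ± 11.5 FPKM, n = 6), Per1 (27.2 ± 3.58) and Cry1 (16.4 ± 2.02). Bhlhe40 and Per1 overlapped, and Cry1 was below both in all 6 libraries. Both groups treated with 2 mg/kg had the same 3 genes on top, followed by Per2 at 10.5 ± 4.10 FPKM in Fgfr1 loxP/loxP mice and 10.9 ± 1.86 in Fgfr1 iΔEC/iΔEC mice. Npas2 was the lowest member in every group, with 0 to 42 reads per library. The count of 0 in Fgfr1 iΔEC/iΔEC library 2 allows a level of up to 0.0369 FPKM, counting 3 reads as the limit, and this covers counting error only.

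The comparison of the LPS group with the saline group asked how the loop stood 24 h after lung injury. Relative to saline, LPS libraries had more Cry1 and Bhlhe40 and less Cry2 and Bhlhe41 with no overlap, and Per2 and Clock overlapped between the groups. Per1, Arntl and Per3 stood differently with and without saline 1. Of the 10 members 8 passed the filter on low values (mean of at least 0.5 FPKM), and Npas2 and Bhlhe41 did not. In limma across 14893 genes, 3 of the 8 were called at an adjusted p of at most 0.05 and a log2 fold change of at least 1 in size, Cry1 and Bhlhe40 as higher and Per3 as lower, where 18.7% of all genes tested were called (11.9% higher and 6.79% lower). Without the limit on the fold change Cry2 was called as lower too, 4 of 8 where 53.2% of genes were called. Since the members were chosen with this contrast known, nothing is read from these counts.

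In the activating arm, the groups overlapped when all libraries were used. Clock (build GRCm38, ENSMUSG00000029238, chr5:76209868-76304792, - strand), which encodes the DNA-binding partner of BMAL1, was at 5.95, 6.12, 5.37 and 5.86 FPKM in saline 1 to 4 and at 2.75 (lowest), 4.18 (median) and 6.36 (highest) in LPS libraries. The highest LPS library was above every saline library, so the groups overlapped, and the log2 fold change was -0.37 (SE 0.16). Clock shares its strand with the small pseudogene Ube2n-ps1 and with Gm43658, which held at most 54 and 13 reads in a library against 613 or more for Clock. Arntl (ENSMUSG00000055116, chr7:113207465-113314126, + strand) was at 3.67, 1.72, 1.47 and 1.86 FPKM in saline and at 2.55, 2.90 and 3.69 in LPS libraries. Saline 1 thus lay at the upper end of the LPS range, whereas saline 2 to 4 were all below the LPS group. The log2 fold change of Arntl was 0.39 (SE 0.18) with all libraries and 0.59 (SE 0.13) without saline 1. Npas2 (ENSMUSG00000026077, chr1:39193731-39363236, + strand), the relative of Clock that can replace it, had 42 reads in saline 1, 7 in each of saline 2 to 4, and 5 to 17 in LPS libraries (0.0581 to 0.186 FPKM). LPS libraries and saline 2 to 4 overlapped, and whether counts this low hide a difference was not tested. The ratio of Npas2 to Clock was accordingly low, on the log2 scale -5.14 ± 0.60 in LPS and -6.29 ± 0.25 in saline 2 to 4, and was -3.17 in saline 1.

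The Period genes, whose proteins carry the repressor complex into the nucleus, differed from each other in how LPS and saline libraries stood. Per1 (ENSMUSG00000020893, chr11:69095217-69109960, + strand) was at 21.6, 28.0 and 30.7 FPKM (lowest, median and highest) in LPS libraries, inside the saline range of 10.8 to 134 but above saline 2 to 4. Its log2 fold change was 0.03 (SE 0.54) with all libraries and 0.80 (SE 0.17) without saline 1, and the ratio of the untransformed means changed sign, from -0.73 to 0.82 on the log2 scale. Saline 1 therefore decided the direction of Per1. Per2 (ENSMUSG00000055866, chr1:91415982-91459324, - strand) was at 1.99, 4.02, 5.24 and 4.78 FPKM in saline and at 3.24, 4.97 and 5.36 in LPS libraries. The groups overlapped with and without saline 1, and the log2 fold change was 0.18 (SE 0.21) and -0.05 (SE 0.16). Per3 (ENSMUSG00000028957, chr4:151003652-151044665, - strand) was at 0.779, 3.42, 3.17 and 3.16 FPKM in saline and at 0.321, 0.668 and 1.05 in LPS libraries. Saline 1 fell inside the LPS range, and the other 3 saline libraries lay above the highest LPS library. The log2 fold change of Per3 was -1.05 (SE 0.25), just past the limit of 1, and the member next below the limit in size was Cry2 (-0.59). It was -1.36 (SE 0.15) without saline 1, -1.72 with a pseudocount of 0.1 and -2.13 in limma-voom, but Per3 passed below the limit without saline 2, 3 or 4 or LPS 2 (to -0.93), after scaling on the endothelial markers (-0.63) and after quantile normalization. Per3 overlaps the long gene Camta1 on the same strand, which held at most 544 reads in a library, so reads of the 2 genes may have been shared.

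The Cryptochrome genes, whose proteins bind and silence CLOCK and BMAL1, stood on opposite sides of the saline group. Cry1 (ENSMUSG00000020038, chr10:85131700-85185064, - strand) was at 5.43, 3.90, 3.34 and 4.05 FPKM in saline and at 13.8, 16.1 and 19.8 FPKM in LPS libraries. Every LPS library was above every saline library, with a mean of 16.4 ± 2.02 against 4.18 ± 0.89 FPKM (3.93-fold) and a log2 fold change of 1.76 (SE 0.13). Cry2 (ENSMUSG00000068742, chr2:92403646-92434043, - strand) was at 6.47, 3.90, 3.50 and 3.72 FPKM in saline and at 2.14, 2.52 and 3.00 FPKM in LPS libraries. No LPS library reached the lowest saline library, with a mean of 2.53 ± 0.33 against 4.40 ± 1.39 FPKM and a log2 fold change of -0.59 (SE 0.15). With libraries scaled on the endothelial markers that value was 0.00, where the median of all genes was 0.59. Groups that do not overlap were found in 39.4% of all genes tested, and among the members in Cry1, Cry2 and Bhlhe40, and in Bhlhe41 below the filter. The ratio of Cry1 to Cry2 within a library does not depend on the scaling between libraries. On the log2 scale it was -0.25 to 0.12 in saline libraries and 2.37 to 2.93 in LPS libraries, a difference of 2.75, so that the 2 genes were at like levels in saline and Cry1 was 5.15- to 7.65-fold above Cry2 in LPS libraries.

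The third pair, the transcriptional repressors encoded by Bhlhe40 (Dec1) and Bhlhe41 (Dec2), were likewise on opposite sides of the saline group. Bhlhe40 (ENSMUSG00000030103, chr6:108660629-108666925, + strand) was at 16.1, 4.07, 4.70 and 4.41 FPKM in saline and at 28.0, 39.4 and 59.9 FPKM in LPS libraries. The groups did not overlap, and the log2 fold change was 2.45 (SE 0.33), or 2.87 (SE 0.21) without saline 1. The LPS library with the most Bhlhe40, LPS 1, also had the highest leukocyte sum (1898 FPKM) and macrophage sum (701 FPKM) and the lowest endothelial sum (1507 FPKM). LPS 6, with the lowest leukocyte sum (773 FPKM), had 29.5 FPKM of Bhlhe40, whereas LPS 5, with the lowest Bhlhe40 (28.0 FPKM), had a leukocyte sum of 1441 FPKM, exceeded only by those of LPS 1 and LPS 2. Leukocytes are known to make Bhlhe40, and their part in its level was not tested. Bhlhe41 (ENSMUSG00000030256, chr6:145858243-145865558, - strand) was at 0.979, 0.753, 0.792 and 0.665 FPKM in saline (87 to 112 reads) and at 0.0912, 0.243 and 0.380 FPKM in LPS libraries (11 to 47 reads). It was lower in all 6 LPS libraries than in any saline library. The log2 ratio of Bhlhe40 to Bhlhe41 was 2.43 to 4.04 in saline and 6.88 to 8.26 in LPS libraries, a difference of 4.55. Bhlhe40 and Bhlhe41 each overlap a little-read transcript on the opposite strand, with at most 5 and 11 reads in a library.

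**Figure D2:**
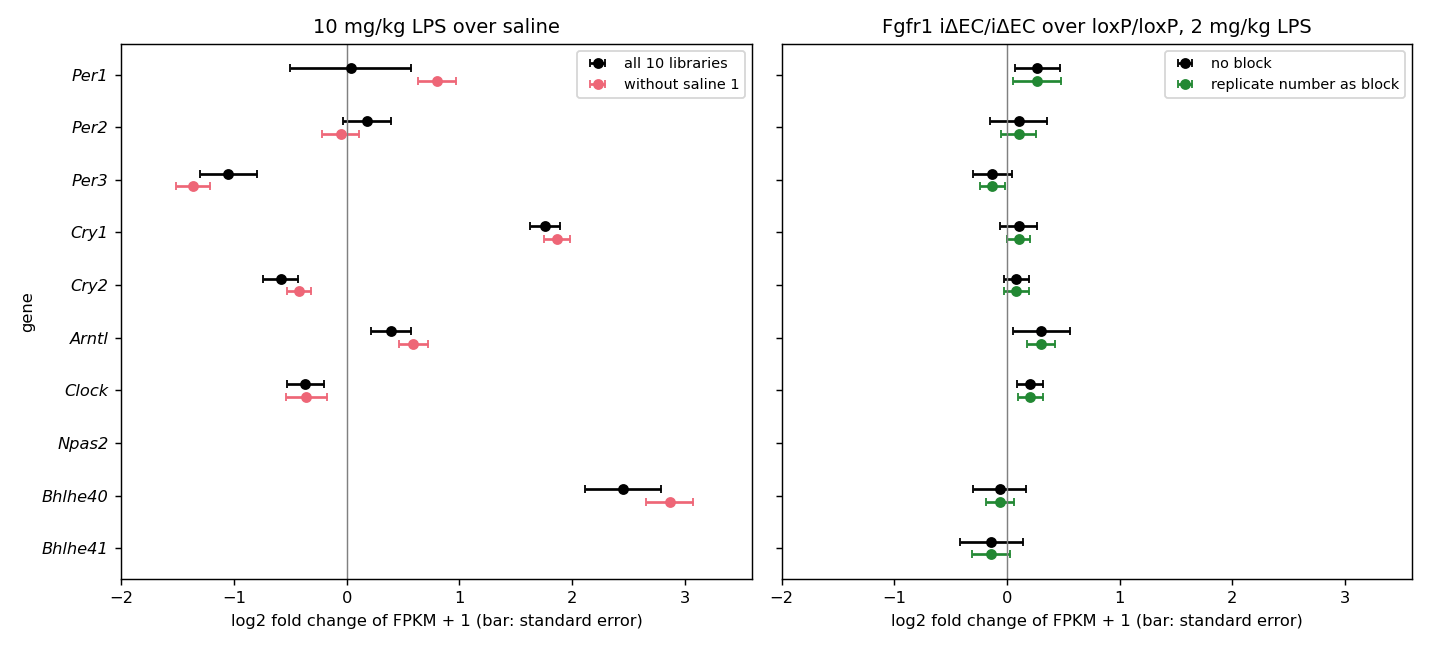
Log2 fold change of log2(FPKM + 1) with its standard error from limma, for LPS over saline (left) with all 10 libraries and without saline 1, and for Fgfr1 iΔEC/iΔEC over Fgfr1 loxP/loxP mice (right) with no block (black) and after blocking on the library number (green). Bhlhe40 and Cry1 lie far to the right and Per3 to the left in LPS over saline, Per1 moves from 0.03 to 0.80 and Per2 from 0.18 to -0.05 when saline 1 is left out, and Npas2, and Bhlhe41 on the left, had too low a mean to enter the fit.

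Without saline 1, the groups of LPS and saline libraries also did not overlap for Per1 and Arntl, both higher in LPS, and Per3, lower in LPS, where 53.1% of all genes did not overlap. The calls with the fold change limit were again Cry1, Bhlhe40 and Per3 (20.3% of genes called), and without that limit Per1, Cry2 and Arntl were called in addition, 6 of 8 members where 56.3% of genes were called. Of these 4 were higher and 2 lower, where 30.8% and 25.5% of genes were called in that direction. The ratio of Per1 to Per2 was 2.33 to 2.89 in LPS libraries and 1.05 to 2.15 in saline 2 to 4 on the log2 scale, and 6.07 in saline 1. The ratio of Per2 to Arntl, a repressing over an activating transcript, was -0.14 to 0.98 in LPS libraries and 1.22 to 1.84 in saline 2 to 4, while saline 1, at -0.88, was below all of them. Saline 1 was thus nearer to the LPS libraries than to its own group in this ratio, and inside the LPS range in Per3 and in Arntl. In Bhlhe40 (16.1 FPKM) and Cry1 (5.43 FPKM) it lay between the other saline libraries and the LPS libraries. It was farther from the LPS libraries than the other saline libraries were in Per1, Per2, Cry2, Npas2 and Bhlhe41.

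**Figure D3:**
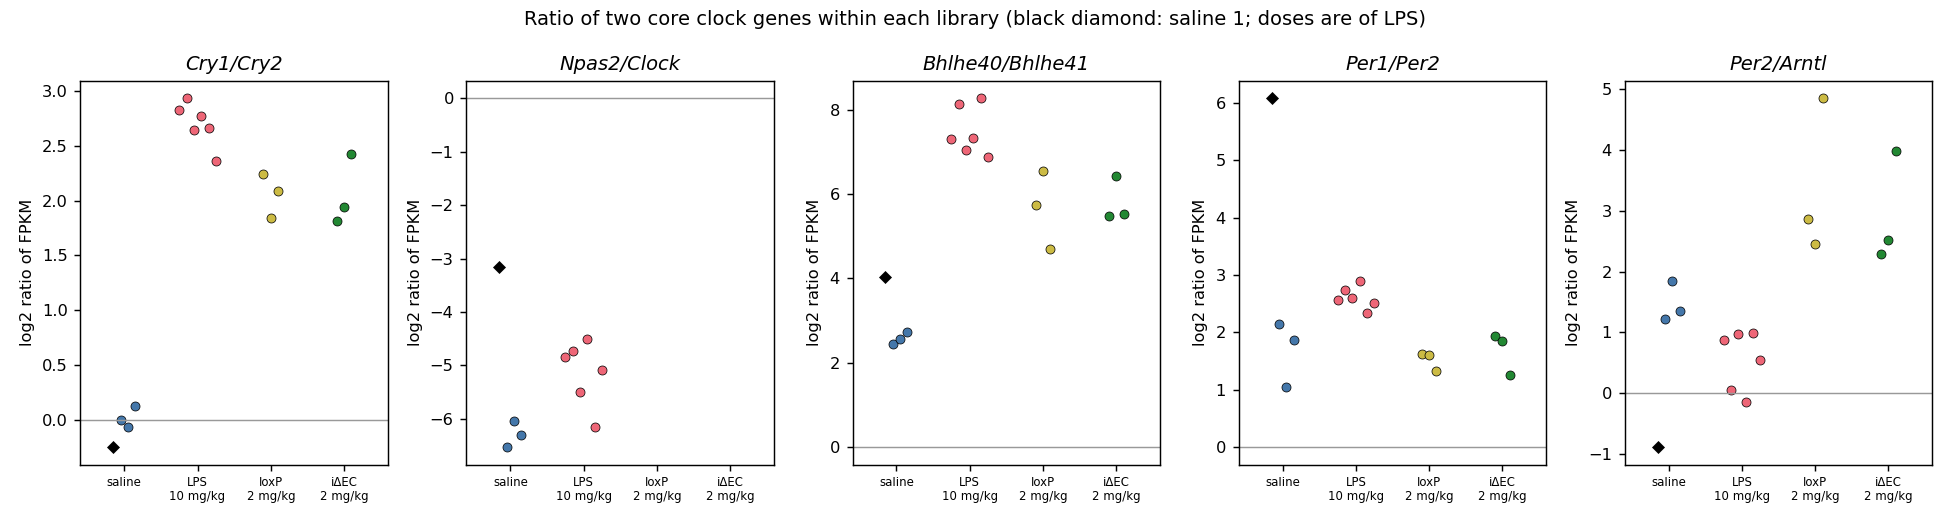
Log2 ratio of the FPKM of 2 core clock genes within each library, with 1 panel per ratio and 1 point per library, and saline 1 as a black diamond. Cry1/Cry2 lies near 0 in saline and between 2.37 and 2.93 in LPS libraries, and the Npas2/Clock panel leaves out the 6 libraries with 2 mg/kg LPS, in which Npas2 had 0 to 10 reads.

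The partners of the loop were read from 3 lists of genes with textbook roles, which were drawn up with earlier results of these data known. The first held the second loop and the outputs (Nr1d1, Nr1d2, Rora, Rorb, Dbp, Tef, Hlf, Nfil3, Ciart and Arntl2), of which 8 of 10 passed the filter. Between LPS and saline, 1 gene of this list was called as higher and 4 as lower with the limit on the fold change, where 11.9% and 6.79% of all genes were, and 1 and 7 without it, where 29.5% and 23.7% were, and the median log2 fold change was -1.36 against 0.01 for all genes. The 3 farthest from 0 were Nr1d1 (-4.27, SE 0.31), Dbp (-2.77, SE 0.51) and Nfil3 (2.61, SE 0.66). Nfil3 was at 27.5 FPKM in saline 1, inside the LPS range, and at 0.825 to 1.16 in the other saline libraries, and its log2 fold change without saline 1 was 3.57 (SE 0.22). Without that library 1 gene of the list was called as higher and 6 as lower with the limit, where 13.1% and 7.23% of all genes were. Nr1d1, whose protein represses Arntl, was at 30.9 to 64.7 FPKM in saline and 0.521 to 3.69 in LPS libraries, and Dbp, whose protein binds D-boxes, at 1.92 to 25.2 and 0.649 to 1.17. The second list held 13 kinases, ubiquitin ligases and cofactors that act on or with PER and CRY proteins (Csnk1d, Csnk1e, Csnk1a1, Gsk3b, Fbxl21, Btrc, Fbxw11, Usp2, Usp7, Timeless, Tipin, Nono and Wdr5). Of 12 tested none was called with the fold change limit, 3 were called as higher and 3 as lower without it, and the median was -0.07. Timeless (-0.60, SE 0.18), Tipin (0.59, SE 0.14) and Csnk1e, a casein kinase that marks PER proteins for degradation (-0.59, SE 0.16), were the farthest from 0. The third list held 8 genes of the glucocorticoid response (Nr3c1, which encodes the receptor itself, Fkbp5, Tsc22d3, Sgk1, Zbtb16, Klf9, Dusp1 and Per1), with 2 called as higher and 1 as lower under the limit, 2 and 2 without it, and a median of -0.14. Fkbp5 (3.37, SE 0.54), Dusp1 (1.53, SE 0.49) and Klf9 (-1.06, SE 0.35) were the farthest from 0. Without saline 1 they were at 4.13 (SE 0.22), 2.16 (SE 0.29) and -0.67 (SE 0.28), and Klf9, at 127 FPKM in saline 1 and 37.1 to 50.5 in the other saline libraries, was no longer called with or without the limit. Without saline 1 that median was 0.55, with 3 called as higher and none as lower with the limit, beside the same shares of all genes as above for that setting. The medians of the 2 other lists were then -1.42 and -0.01.

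The second experiment asked whether loss of endothelial Fgfr1 changed gene expression under 2 mg/kg LPS. Fgfr1 itself was at 2.90, 2.91 and 2.60 FPKM in Fgfr1 loxP/loxP and 0.682, 1.41 and 1.15 FPKM in Fgfr1 iΔEC/iΔEC libraries. The 2 groups did not overlap, in the direction the labels give, with a log2 fold change of -0.88 (SE 0.16), a two-sided exact permutation p of 0.1, the smallest that 3 libraries against 3 allow, and an adjusted p of 0.962 in limma. No core clock gene passed the test for a difference between the genotypes. Of the 9 members tested (Npas2 was under the filter) none was called, and none of the 14945 genes was called by limma with or without the limit on the fold change (0% of genes), while 661 genes had an unadjusted p under 0.05 and none of these was a member. Limma-voom on read numbers recovered from the FPKM called 0 genes as well, with 674 at an unadjusted p under 0.05. The members' adjusted p-values ran from 0.962 to 0.986 in limma, and from 0.644 to 1.00 over the 14 alternatives.

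The members' levels in the 2 genotypes were as follows. Cry1 was at 16.7, 15.6 and 19.2 FPKM in Fgfr1 loxP/loxP and at 15.6, 17.5 and 22.9 in Fgfr1 iΔEC/iΔEC libraries (log2 fold change 0.10, SE 0.16, exact permutation p = 0.7). Cry2 was at 3.51, 4.34 and 4.52 against 4.42, 4.54 and 4.27 FPKM (0.08, SE 0.11, exact permutation p = 0.6). Bhlhe40 was at 31.3, 32.3 and 43.0 against 24.6, 35.0 and 44.1 FPKM (-0.07, SE 0.23, exact permutation p = 1). The libraries of the 2 genotypes overlapped in each of these genes. Per1 was at 26.6, 23.0 and 38.2 FPKM in Fgfr1 loxP/loxP and 35.1, 38.6 and 30.7 in Fgfr1 iΔEC/iΔEC libraries (0.27, SE 0.20, exact permutation p = 0.3). Per2 was at 8.65, 7.58 and 15.1 against 9.14, 10.8 and 12.9 FPKM (0.10, SE 0.25, exact permutation p = 0.7), and Per3 at 2.27, 1.81 and 3.08 against 1.88, 1.87 and 2.47 FPKM (-0.13, SE 0.17, exact permutation p = 0.7). The Period genes overlapped as well, and Per1 in Fgfr1 iΔEC/iΔEC mice was higher in 2 of 3 same-numbered pairs. Arntl was at 1.19, 1.38 and 0.528 FPKM in Fgfr1 loxP/loxP and 1.86, 1.88 and 0.816 in Fgfr1 iΔEC/iΔEC libraries (0.30, SE 0.25, exact permutation p = 0.4). Clock was at 5.18, 5.31 and 5.41 against 7.11, 5.38 and 6.38 FPKM (0.20, SE 0.11, exact permutation p = 0.2). Arntl and Clock were the 2 members that were higher in the Fgfr1 iΔEC/iΔEC library of all 3 same-numbered pairs. Neither was called by limma with or without the library number as a block. The exact permutation test takes no account of pairs and cannot give a p under 0.1 here. Npas2, the other gene of the activating arm, was higher in FPKM in 2 of 3 pairs. In the third pair both libraries had 6 reads and differed only through the scaling. The share of all genes with 1 direction in all 3 pairs was not counted. Bhlhe41 was at 0.587, 0.344 and 1.66 against 0.551, 0.404 and 0.950 FPKM (-0.14, SE 0.28, exact permutation p = 0.8), and Npas2 had 1, 10 and 6 against 5, 0 and 6 reads (exact permutation p = 0.6). All 10 members, with Npas2 under the filter, overlapped between the genotypes, while 10.1% of the genes that passed the filter did not. For 3 libraries against 3, no overlap has a probability of 0.1 over both directions without any difference. Nothing is therefore read from this share or from the overlap of the members.

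Ratios within a library overlapped between the genotypes too. The log2 ratio of Cry1 to Cry2 was 2.06 ± 0.20 in Fgfr1 loxP/loxP and 2.06 ± 0.32 in Fgfr1 iΔEC/iΔEC mice (exact permutation p = 1), and that of Bhlhe40 to Bhlhe41 5.66 ± 0.93 and 5.82 ± 0.54 (exact permutation p = 1). Per1 to Per2 (1.52 ± 0.16 and 1.68 ± 0.37) and Per2 to Arntl (3.39 ± 1.28 and 2.93 ± 0.91) each gave an exact permutation p of 0.6. Adjusted over the 4 ratios all p-values were 1, and the ratio of Npas2 to Clock was left out here because 1 library had no Npas2 read. The endothelial sum was 2453 to 3053 FPKM in Fgfr1 loxP/loxP and 2801 to 3900 in Fgfr1 iΔEC/iΔEC libraries, the leukocyte sums were 494 to 657 and 342 to 782, the neutrophil sums 1212 to 2685 and 777 to 2516, and the epithelial sums 924 to 2914 and 430 to 1102. In all 3 same-numbered pairs the endothelial sum was higher and the neutrophil, epithelial and mural sums were lower in the Fgfr1 iΔEC/iΔEC library, in the same pairs in which Arntl and Clock were higher, and their part in the levels of the clock genes was not tested. None of the 3 partner lists had a call in this comparison, with median log2 fold changes of -0.20, 0.08 and 0.18 in the order above against 0.01 for all genes. Dbp, at 7.86, 6.69 and 12.0 against 4.30, 3.07 and 7.20 FPKM (-0.78, SE 0.30, limma adjusted p = 0.962), and Nr1d1, at 20.9, 16.6 and 20.3 against 20.8, 8.91 and 14.0 FPKM (-0.45, SE 0.28, limma adjusted p = 0.962), did not pass the test. Both were lower in the Fgfr1 iΔEC/iΔEC library of all 3 same-numbered pairs, though Nr1d1 hardly differed in the first (20.8 against 20.9 FPKM). With the replicate block the adjusted p in limma was 0.411 for Dbp (SE 0.098) and 0.642 for Nr1d1 (SE 0.18).

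In the libraries numbered 3, 6 of the 10 members stood at the same end of their group in both genotypes. The share of all genes that did so was not counted. The 2 libraries numbered 3 deviated together (r = 0.19), so nothing particular to the members is read from this count. Per2, Per3, Cry1, Bhlhe40 and Bhlhe41 were at their highest and Arntl at its lowest of the 3 libraries of the group. The largest of these departures were those of Bhlhe41, 3.56-fold above the mean of libraries 1 and 2 in Fgfr1 loxP/loxP and 1.99-fold in Fgfr1 iΔEC/iΔEC mice, and of Arntl, 2.44- and 2.29-fold below it. Per2 was 1.87- and 1.29-fold above it. Per1 went opposite ways, 1.54-fold above it in Fgfr1 loxP/loxP and 1.20-fold below it in Fgfr1 iΔEC/iΔEC mice, Cry2 was likewise highest in one and lowest in the other, and Clock and Npas2 were each between the others in 1 genotype. Dbp was likewise highest in number 3 of both genotypes, by 1.65- and 1.95-fold. The departures were seen after the data were examined, and what the numbers stand for is not given in the sources used here.

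**Figure D4:**
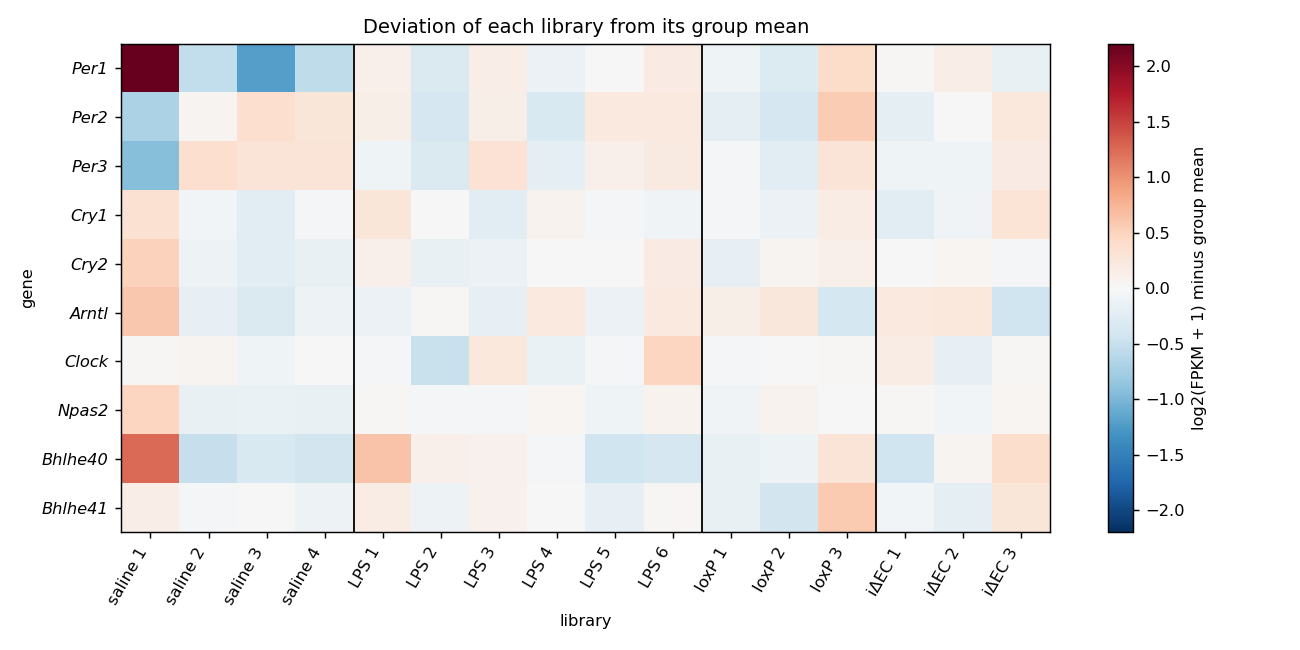
Deviation of each of the 16 libraries (columns) from the mean of its own group for the 10 core clock genes (rows), as a difference in log2(FPKM + 1), with vertical lines between the groups (loxP, Fgfr1 loxP/loxP; iΔEC, Fgfr1 iΔEC/iΔEC). Saline 1 stands out with high Per1, Bhlhe40 and Arntl and low Per2 and Per3, and the libraries numbered 3 of both genotypes share high Per2 and Bhlhe41 and low Arntl.

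Across all 16 libraries, deviations from the group mean were compared between genes as a description of the libraries. All correlations here are Pearson's r over 16 libraries that share depth, cell mixture and, for saline 1, 1 extreme point. Per2 and Per3 deviated together (r = 0.88, and 0.83 without saline 1), and Arntl deviated against both (r = -0.83 and -0.79, and -0.72 and -0.62 without saline 1). Per1 deviated against Per3 with saline 1 (r = -0.69) and with it without that library (r = 0.58), so that relation rests on saline 1. Among 12328 genes that averaged 1 FPKM or more in both tables, the gene nearest to Per3 was Tef, a PAR bZIP factor (r = 0.98, and 0.91 without saline 1), followed by Zfp397 and B130055M24Rik (both 0.95). Nearest to Per1 were Usp38, Csrnp1 and Sik1, a kinase gene known to respond to cAMP (r = 0.97, 0.97 and 0.96), which came to 0.66, 0.57 and 0.59 without saline 1. Nearest to Bhlhe40 were Irak2, Osm and Clec4e (all 0.96, and 0.88 to 0.90 without saline 1), the last a receptor gene of myeloid cells. Igf1r, Adnp2 and Rbm6 were nearest to Per2 (0.90 to 0.91), Atp6ap1, St13 and Hsph1 to Cry1 (0.86 to 0.88), and Usp38, Psd and P2ry2 to Cry2 (0.90 to 0.92, and 0.62 to 0.79 without saline 1). Rbp7, Lpin3 and Fam118a were nearest to Arntl (0.89 to 0.90), Zbtb39, Btbd7 and Utrn to Clock (0.94 to 0.97), and Atxn1, Cish and Kbtbd7 to Bhlhe41 (0.82 to 0.85). For Npas2 the nearest were Pafah1b1, Pla2g6 and Rhbdf2 (0.94 to 0.95), with 0.31 to 0.54 left without saline 1.

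The Fgfr1 loxP/loxP libraries, with 2 mg/kg LPS, were last set beside the saline libraries by gene identifier. Genotype, tamoxifen, dose and experiment differ together between these groups and cannot be told apart, and the 2 tables were normalized separately, so no test was made and the log2 ratio of mean FPKM is given beside the median of all genes, 0.06. Cry1, at 15.6 to 19.2 FPKM against 3.34 to 5.43, had a ratio of 2.04, next to 1.98 for the 10 mg/kg LPS group. Bhlhe40, at 31.3 to 43.0 against 4.07 to 16.1 FPKM, had a ratio of 2.28, next to 2.44, and without saline 1 these were 3.02 and 3.17. In these 2 genes the libraries of both doses lay above all saline libraries, and the ranges of the 10 and 2 mg/kg libraries overlapped. Both ratios share the saline libraries. In the Fgfr1 loxP/loxP libraries the leukocyte sum was 494 to 657 FPKM against 71.5 to 238 in saline, the macrophage sum 176 to 255 against 42.3 to 52.1 and the globin sum up to 385 against up to 25.3. The endothelial sum, at 2453 to 3053 against 3424 to 5845 FPKM, and the fibroblast sum, at 23.9 to 32.6 against 48.8 to 86.2, were lower. Of the 7 fibroblast markers 2 had a higher mean than in saline, Lum and Dcn, the latter at 4.38 to 5.13 against 0.623 to 0.888 FPKM. None of these 5 sums overlapped between the groups, and their part in these ratios was not tested.

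The other members are given with their ratios to saline at 2 and then at 10 mg/kg. Per2, at 7.58 to 15.1 FPKM, was above all saline libraries and also above all 6 libraries of the 10 mg/kg group, with ratios of 1.38 and 0.18, or 1.16 and -0.05 without saline 1. Arntl, at 0.528 to 1.38 FPKM, was below all saline libraries, with a ratio of -1.08, while the ratio of the 10 mg/kg group was 0.49, and without saline 1 these were -0.71 and 0.86. Per3 had a ratio of -0.14 and Bhlhe41 of 0.11, where those of the 10 mg/kg group were -1.97 and -1.76. Without saline 1 the ratios of Per3 were -0.45, against a median of 0.09 for all genes, and -2.28, and those of Bhlhe41 were 0.23 and -1.64. Cry2 had -0.09 and -0.80, or 0.15 and -0.55 without saline 1, and Clock had -0.14 and -0.40, or -0.13 and -0.39. The ratios of Per1 were alike at the 2 doses, at -0.62 and -0.73 with saline 1 and 0.92 and 0.82 without it, so that their direction again depended on that library. Npas2, with 1 to 10 reads at 2 mg/kg, had -1.67 and -0.78, or -0.09 and 0.80. At least 2-fold apart were 5 members (Per2, Cry1, Arntl, Npas2 and Bhlhe40), where 21.9% of 14163 genes were. Of these members Npas2 averaged under 0.5 FPKM, the filter on low values, in both groups. Without saline 1 the members were 3 (Per2, Cry1 and Bhlhe40), where 24.8% of genes were. The groups did not overlap for Per2, Cry1, Bhlhe40 and Arntl, where 40.5% of genes did not, and without saline 1 for Per1 and Per3 in addition, where 58.3% of genes did not.

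**Figure D5:**
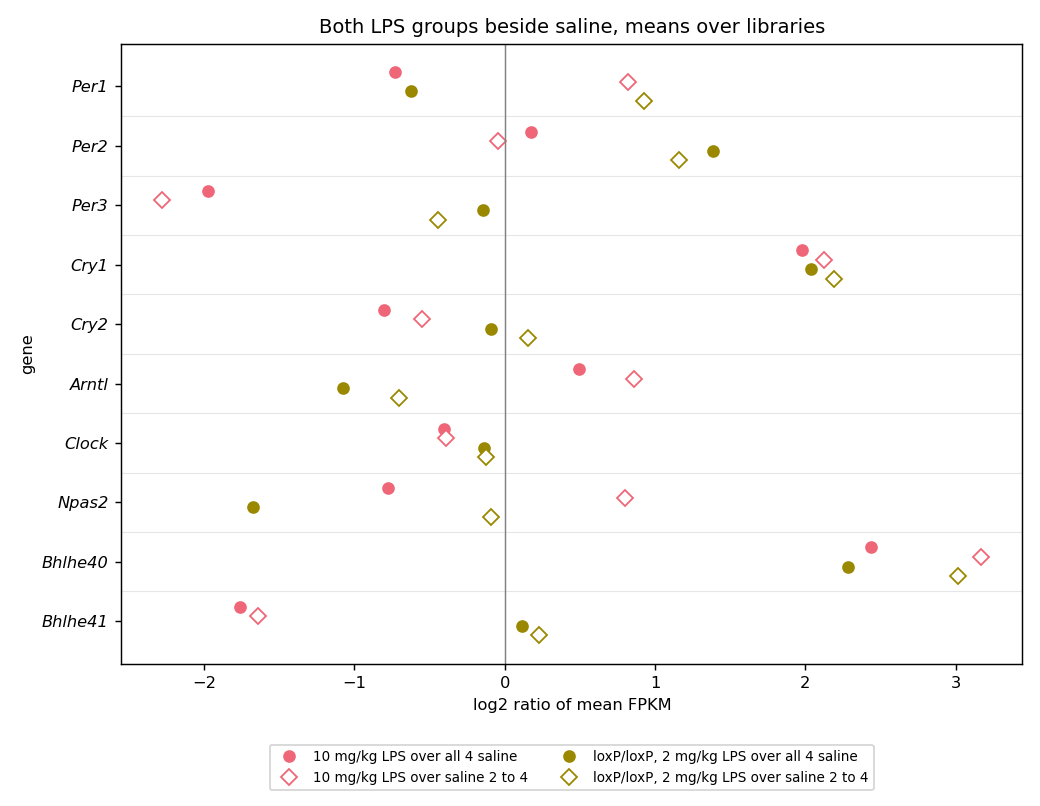
Log2 ratio of mean FPKM of the 10 mg/kg LPS group and of the Fgfr1 loxP/loxP group with 2 mg/kg LPS over saline, with all 4 saline libraries (filled circles) and without saline 1 (open diamonds), for the 10 core clock genes; no error is drawn and no test was made. Cry1 and Bhlhe40 lie to the right at both doses, and Arntl lies to the left at 2 mg/kg and to the right at 10 mg/kg. Per2 lies at 1.38 at 2 mg/kg and near 0 at 10 mg/kg, at 0.18 with and -0.05 without saline 1.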

How the data were processed

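RNA was extracted from bead-isolated pulmonary ECs and sequenced in 2 experiments, each with its own table of 54532 genes. The authors aligned reads to GRCm38 with HISAT2 2.0.5, counted reads per gene with featureCounts 1.5.0-p3 and deposited FPKM per library, and these versions come from the submitters' processing notes. Whether counting used strand is not given in the sources used here. Read numbers were recovered from the FPKM and gene lengths, with 100% of values within 0.02 of a whole number. The libraries held 13478726 to 19043015 reads on genes, and no pair of replicates was so alike that it could be 1 library deposited more than once. Within each table, median-of-ratios factors were applied to the FPKM. They moved the saline and LPS libraries by 0% and those of the second experiment by at most 0.182%. The deposited FPKM thus already held such factors. Then log2(FPKM + 1) was tested for genes that averaged 0.5 FPKM or more with limma 3.58.1 in R 4.3.3 (moderated test with trend). Fold changes are on this scale, which understates the change of low genes. Genes were called at a Benjamini-Hochberg adjusted p of at most 0.05 and a log2 fold change of 1 or more in size. Single members were also compared between genotypes by a two-sided exact permutation test, whose smallest p was 0.1. The ratio of Npas2 to Clock was left out of the second experiment, so p-values were adjusted over 4 ratios. The scripts were tested on simulated data. Python 3.11.15 with pandas 2.3.3 and matplotlib 3.10.9 served for summaries and figures.

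The members and gene lists were chosen with earlier results of these data known, and some genes of the partner lists are not reported here. Named were all 10 members, Fgfr1, Nr1d1, Dbp, the 3 genes of each partner list farthest from 0, the 3 genes most correlated with each member, and the most abundant and the undetected markers. The other values of single genes in saline 1, and the other markers named, were chosen after they were seen. In the second experiment, libraries with the same number deviated together (r of 0.18 to 0.25, against -0.14 to -0.04 between different numbers). Deviations within a group sum to 0, so the negative values follow in part from the positive ones and are no separate evidence. What the numbers stand for is not given, so pairing is an assumption, and a fit with the number as a block was added. Other alternatives were limma-voom on the recovered reads, which takes library sizes from total reads, no further scaling, scaling on the endothelial markers and quantile normalization. A pseudocount of 0.1, no filter, no limit on the fold change, and leaving out each library were also used. No further scaling could not change the saline and LPS results and could hardly change the others, because the factors were 0% and at most 0.182%. It is therefore no check of the scaling.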

Additional observations from a re-analysis of the deposited data

Results flagged for a closer look

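Of 52 sets of values within a group of 4 or 6 libraries, 6 held 1 library whose gap to its nearest neighbour was large against the range of the group, where chance gives about 1 in 20, or 2.6. All 6 were in saline 1, and the flagged ratio shares its Npas2 values with the Npas2 flag. The flags are therefore not independent, and nothing is read from the comparison with chance. Per1 was at 134 FPKM there, with the other saline libraries at 10.8 to 17.9, and Bhlhe40 was at 16.1 FPKM, with the others at 4.07 to 4.70. Npas2 was at 0.663 FPKM, with the others at 0.0660 to 0.0818, and its log2 ratio to Clock was -3.17, with the others between -6.54 and -6.04. Cry2 was at 6.47 FPKM, with the others at 3.50 to 3.90. Per3 was the flagged gene on the low side, at 0.779 FPKM with the others at 3.16 to 3.42. Pan-leukocyte, neutrophil and epithelial markers and glucocorticoid-responsive genes were also high in saline 1, and their part in these values was not tested.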

How the results depend on the processing

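In LPS over saline, the number of core clock genes called stayed between 2 and 3 under all alternatives with the fold change limit. Per3 passed below that limit without saline 2, 3 or 4 or LPS 2 (to -0.93), on the endothelial scale and after quantile normalization, and leaving out 1 library moved Per1 from -0.37 to 0.80. Per3 was at -1.72 with a pseudocount of 0.1 and -2.13 in limma-voom, where Cry2 was at -0.96 and Clock at -0.66. Scaling on the endothelial markers moved the median of all genes to 0.59 and Per3 to -0.63, Cry2 to 0.00, Clock to 0.27 and Per2 to 0.78. Relative to that median Per3 was at -1.22, Cry2 at -0.59, Clock at -0.32 and Per2 at 0.19. Without the fold change limit, Per3 and Cry2 were no longer called on that scale and Per2 and Arntl were, Clock was called as lower in limma-voom, after quantile normalization and without LPS 6, and Bhlhe41 was with no filter on low values. All genes called numbered 2779, and 7928 without the limit, 4752 on the endothelial scale, 4171 with a pseudocount of 0.1 and 4506 in limma-voom. The share of higher genes among them was 63.6%, against 95.9% on the endothelial scale, 50.7% after quantile normalization and 40.7% in limma-voom. The replicate numbers of this experiment did not pair the libraries (r of -0.21 to 0.10 for the same number and -0.16 to 0.29 otherwise). With the replicate block 3 members and 2988 genes were called with the limit, and 4 members and 5999 genes without it.

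In Fgfr1 iΔEC/iΔEC over loxP/loxP mice, 0 members and 0 genes were called under every alternative. With the replicate block, which assumes that the numbers pair the libraries, the smallest adjusted p in limma was 0.306 against 0.742. In that fit 1154 genes against 661 had an unadjusted p under 0.05, and no call changed. On the endothelial scale, with the median of all genes at -0.21, the log2 fold change turned to -0.0031 for Per1, -0.15 for Per2, -0.16 for Cry1, -0.14 for Cry2 and -0.037 for Clock, all of which kept their sign relative to that median. Without the libraries numbered 3, an alternative chosen after seeing the data, Bhlhe41 was at 0.015, Per1 at 0.56 and Per2 at 0.26. Cry2 was then at 0.16, Cry1 at 0.032, Per3 at -0.076 and Bhlhe40 at -0.11. Leaving out 1 library gave 0.12 to 0.47 for Per1, 0.11 to 0.52 for Arntl, 0.12 to 0.30 for Clock, -0.078 to 0.38 for Per2, -0.25 to 0.015 for Per3, -0.048 to 0.22 for Cry1, -0.0054 to 0.14 for Cry2, -0.26 to 0.15 for Bhlhe40 and -0.34 to 0.15 for Bhlhe41. Beside saline, the members at least 2-fold apart in Fgfr1 loxP/loxP mice numbered 3 in place of 5 without saline 1. Depth limits Npas2, with 0 to 42 reads, and Bhlhe41, with 11 to 47 reads in LPS libraries.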
